A study of Homo sapiens with 9 samples.

Results

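The microRNA and RNA interference machinery was described here by 10 genes: DROSHA, DGCR8, XPO5, DICER1, TARBP2, AGO1, AGO2, AGO3, TNRC6A and TNRC6B. They were chosen by name as transcripts of microRNA processing and Argonaute pathway genes, not by any measured value, though with earlier results of these data known. They are 10 of 56347 genes matched in the data. All 10 passed the filter on low counts that left 16181 genes for testing, and 57 of the 118 transcripts listed for them passed the filter for transcripts. RNA had been sequenced from nuclear and cytoplasmic fractions of HEK293 cells, a human embryonic kidney line that the study's methods call 293 T. The control groups had received a control siRNA, and the RNAi groups siRNAs against both WTAP and KIAA1429 (VIRMA or Virilizer), with siRNAs at 10 nM, a second transfection at 48 hours and harvest at 72 hours. WTAP and KIAA1429 belong to the complex that writes N6-methyladenosine (m6A) on mRNA. The comparison asked whether their loss changed the nuclear/cytoplasmic ratio of mRNAs, and the samples analysed here were 1 control cytoplasmic (replicate 2), 3 control nuclear, 2 RNAi cytoplasmic and 3 RNAi nuclear libraries. Other cytoplasmic replicates were not analysed here.

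A microRNA begins as a hairpin in a primary transcript. The nuclease DROSHA and its RNA-binding partner DGCR8, together the Microprocessor, cut the hairpin out in the nucleus, and exportin-5, encoded by XPO5, carries it to the cytoplasm. There DICER1 with its partner TARBP2 cuts it to a duplex, of which one strand is loaded into an Argonaute protein (AGO1, AGO2 or AGO3). TNRC6 proteins (TNRC6A and TNRC6B) bind Argonaute and recruit the enzymes that silence the target mRNA. The Microprocessor is also known to cut hairpins within the DGCR8 mRNA itself.

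Of these genes DICER1, TNRC6A and AGO3 had a higher nuclear/cytoplasmic ratio after WTAP/KIAA1429 RNAi than in the control, and the other 7 were not called. DICER1 changed by 1.34 on the log2 scale (SE 0.245), TNRC6A by 0.91 (SE 0.233) and AGO3 by 0.88 (SE 0.227). Over all genes tested, 10.4% were called higher for the ratio. The same 3 genes were lower in the RNAi cytoplasm, where 14.2% of all genes were called lower. None of the 10 was called within the nucleus, where only 4.89% of all genes were called in either direction. DGCR8 stood out in another way: its RNA was between 4.51 and 4.71 times higher in the nucleus than in the cytoplasm whichever siRNA was used, and most of the nuclear RNA was assigned to transcripts that keep an intron.

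The sequences that follow show stretches of exons of DICER1 and TNRC6A and an intron of DGCR8, read from the reference genome (GRCh37, the same build as hg19). The first is a stretch of the longest internal exon of DICER1, exon 23 of DICER1-201, at chr14:95562466-95562765 on the minus strand, within the coding sequence. The second is from the longest internal exon of TNRC6A, exon 6 of TNRC6A-201, at chr16:24801974-24802273 on the plus strand, also coding. In each, the 300 bases of the exon with the most matches to the writer consensus were taken, and capitals mark the matches. The consensus was searched on the transcript strand as the letters GGACT, with the related strings GAACT, then also AGACT, and lastly AAACT, overlaps included.

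DICER1 exon 23: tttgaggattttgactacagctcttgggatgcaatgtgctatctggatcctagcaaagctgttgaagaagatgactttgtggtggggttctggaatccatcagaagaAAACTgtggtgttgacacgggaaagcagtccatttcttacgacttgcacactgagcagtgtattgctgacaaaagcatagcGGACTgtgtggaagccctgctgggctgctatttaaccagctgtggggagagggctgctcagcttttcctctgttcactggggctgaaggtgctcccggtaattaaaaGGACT

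TNRC6A exon 6: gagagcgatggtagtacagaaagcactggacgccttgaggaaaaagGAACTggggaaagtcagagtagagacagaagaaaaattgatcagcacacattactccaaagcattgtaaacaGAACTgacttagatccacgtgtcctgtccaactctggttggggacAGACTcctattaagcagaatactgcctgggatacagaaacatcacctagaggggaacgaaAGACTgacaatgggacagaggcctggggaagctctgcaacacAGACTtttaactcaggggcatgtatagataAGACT

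The DICER1 stretch held 3 matches and the TNRC6A stretch 6. In members not called for the ratio change, the best such stretch held 5 in TNRC6B, 4 in DGCR8 and 2 in DROSHA. Among the 6105 protein-coding genes tested whose longest internal exon has at least 300 bases, the best stretch of this length held at least 1 match in 87.5%, at least 3 in 40.7% and at least 6 in 2.62%. These genes were not matched for exon length. A match is a string of letters and not a methylation site, and methylation was not measured in these data. None of these exon features separated the called members from the others. The longest internal exon is 889 nt in DICER1 (at or above 83.1% of the genes tested) and 2586 nt in TNRC6A (97%), but only 217 nt in AGO3 (33.2%), against a median of 286 nt over 12774 protein-coding genes. Among members not called for the ratio change it is 2349 nt in TNRC6B (96.4%), 997 nt in DGCR8 (85.3%) and 834 nt in DROSHA (81.7%), and 200 to 204 nt in the other 4. The density of consensus matches in that exon was 6.75 per kb in DICER1, 7.35 in TNRC6A and 0 in AGO3, and 6.02 per kb in DGCR8, 5.96 in TNRC6B and 2.4 in DROSHA, against a median of 3.91 per kb. The final exon is 16864 nt in AGO3 (99.8%), 4436 nt in DICER1 (85.4%) and 2796 nt in TNRC6A (67%), and it is also long in TNRC6B (12955 nt, 99.5%), AGO2 (11997 nt, 99.3%) and AGO1 (11034 nt, 99%), against a median of 1928 nt over 13474 genes.

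The DGCR8 sequences are shown because its nuclear RNA was assigned mainly to intron-keeping transcripts. DGCR8-209, its most abundant transcript, keeps the whole of intron 4 of the coding transcript DGCR8-201, at chr22:20077335-20077498 on the plus strand. Its splice site dinucleotides are in capitals.

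DGCR8 intron 4: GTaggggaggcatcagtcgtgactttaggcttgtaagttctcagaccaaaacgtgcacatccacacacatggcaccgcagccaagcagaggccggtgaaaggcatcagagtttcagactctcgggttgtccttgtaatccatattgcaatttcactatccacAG

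DGCR8 exon 2 also holds annotated microRNA hairpins, whose mature sequences, from RefSeq, are given with the seed (bases 2 to 8) in capitals. Each matched the DGCR8 gene once, at chr22:20073320-20073341 for miR-3618, chr22:20073595-20073616 for miR-1306-5p and chr22:20073635-20073652 for miR-1306-3p. DICER1 holds the hairpin of miR-3173 in an intron, with miR-3173-5p at chr14:95604298-95604319 and miR-3173-3p at chr14:95604260-95604281 on the minus strand. No seed was shared among these 5 sequences. The libraries were made from mRNA, so mature microRNAs were not measured.

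hsa-miR-3618: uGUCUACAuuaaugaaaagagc

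hsa-miR-1306-5p: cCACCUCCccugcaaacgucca

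hsa-miR-1306-3p: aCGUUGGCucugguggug

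hsa-miR-3173-5p: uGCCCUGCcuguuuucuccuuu

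hsa-miR-3173-3p: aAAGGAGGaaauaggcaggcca

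Library totals ranged from 11627403 to 19036141 estimated counts, with the control cytoplasmic library the deepest. At these depths 3 counts correspond to 0.19 to 0.303 CPM (the count scaled to library size after TMM normalisation), below every member in every library. A CPM is a share of its own fraction's RNA, and in bulk RNA fewer cells of a type and less RNA per cell cannot be told apart. WTAP was at 30.3% of the control in the RNAi cytoplasm and 56.2% in the RNAi nucleus, and KIAA1429 (VIRMA) at 23.8% and 47.2%. All 5 HEK293 markers analysed were detected (VIM, NEFM, INA, PAX2 and KRT18), and the 3 markers of other lineages (PTPRC, CD3E and ALB) were each under 1 TPM in every library. The nuclear RNAs MALAT1, NEAT1 and KCNQ1OT1 summed to 31.8 to 37.8 TPM in nuclei. In the cytoplasm they summed to 4.55 TPM in the control and to 1.88 and 2.07 TPM after RNAi, with MALAT1 and KCNQ1OT1 called lower and NEAT1 at -0.32 on the log2 scale (edgeR FDR 0.223), and in the nucleus NEAT1 and KCNQ1OT1 were called higher. The ratio change was called higher for all 3. Their part in the ratio and cytoplasmic changes of the members was not tested. Mitochondrially encoded mRNAs made up 22.8% to 37.4% of TPM in nuclei and 18.4% to 26.1% in cytoplasms, and the part of such RNA in the nuclear values was not tested. The control cytoplasm has no replicate, so its spread in every test was taken from the other groups, and since separate cultures are not stated for the replicates, the p-values measure the spread between these libraries.

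In the microRNA machinery, levels compared per length as TPM differed between the highest and lowest member by 10.1-fold in the control cytoplasm, 14.4-fold in the RNAi cytoplasm, 12-fold in the control nucleus and 10.8-fold in the RNAi nucleus. AGO2, the Argonaute that can itself cut a target, was highest in the control cytoplasm at 63.7 TPM, followed by DROSHA at 60.5, TARBP2 at 44.1 and XPO5 at 41.9 TPM. TNRC6A (16.5 TPM), AGO1 (16.4 TPM) and DICER1 (15.5 TPM) came next, and DGCR8 (7.52 TPM), TNRC6B (6.93 TPM) and AGO3 (6.28 TPM) were lowest. Of the AGO2 level, 26.4 TPM came from short transcripts with no defined coding sequence (108.6 estimated counts). Short intron-retaining ones gave 19.2 TPM (140.7 counts). Protein-coding transcripts of AGO2 gave 10.5 TPM, below those of DROSHA (59.8 TPM), XPO5 (41.3 TPM), TARBP2 (30.1 TPM), AGO1 (16.4 TPM) and TNRC6A (13.5 TPM). The top rank of AGO2 thus depended on the short models, and so did the place of DICER1 above DGCR8, TNRC6B and AGO3. The control cytoplasm has no replicate, so neighbours in the order by TPM cannot be told apart by their spread.

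In the control nucleus XPO5 (54.1 ± 13.5 TPM, SD, n = 3), DGCR8 (47.3 ± 11.8), TARBP2 (42.4 ± 11.2), DROSHA (39.2 ± 2.68) and AGO2 (38.1 ± 1.87) headed the order, and each overlapped with the next. TNRC6A (23.8 ± 3.47 TPM) and AGO1 (13 ± 0.514 TPM) were each apart from their neighbours. TNRC6B (6.81 ± 0.935 TPM), DICER1 (6.21 ± 2.31 TPM) and AGO3 (4.51 ± 0.53 TPM) overlapped at the bottom. After RNAi, DICER1 was at 5.76 ± 0.877 TPM (SD, n = 2) in the cytoplasm, where it overlapped with DGCR8 at 6.38 ± 0.249 TPM, and at 10.5 ± 2.86 TPM (SD, n = 3) in the nucleus. Of the 15.5 TPM of DICER1 in the control cytoplasm, 5.25 TPM came from short intron-retaining transcripts that held only 12.8 estimated counts, so this level rests partly on few reads. Another 4.34 TPM came from a short transcript with no defined coding sequence (37.4 counts). Protein-coding transcripts of DICER1 gave 5.57 TPM there, below those of every other member, with AGO3 next at 6.03 TPM. Of AGO2 in the control nucleus, 4.5 ± 0.917 TPM (SD, n = 3) came from protein-coding transcripts. AGO2-201 is listed at 3572 nt, shorter than the 11997 nt final exon that the newer annotation gives AGO2, so levels of AGO2 per length depend on the annotation.

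**Figure D1:**
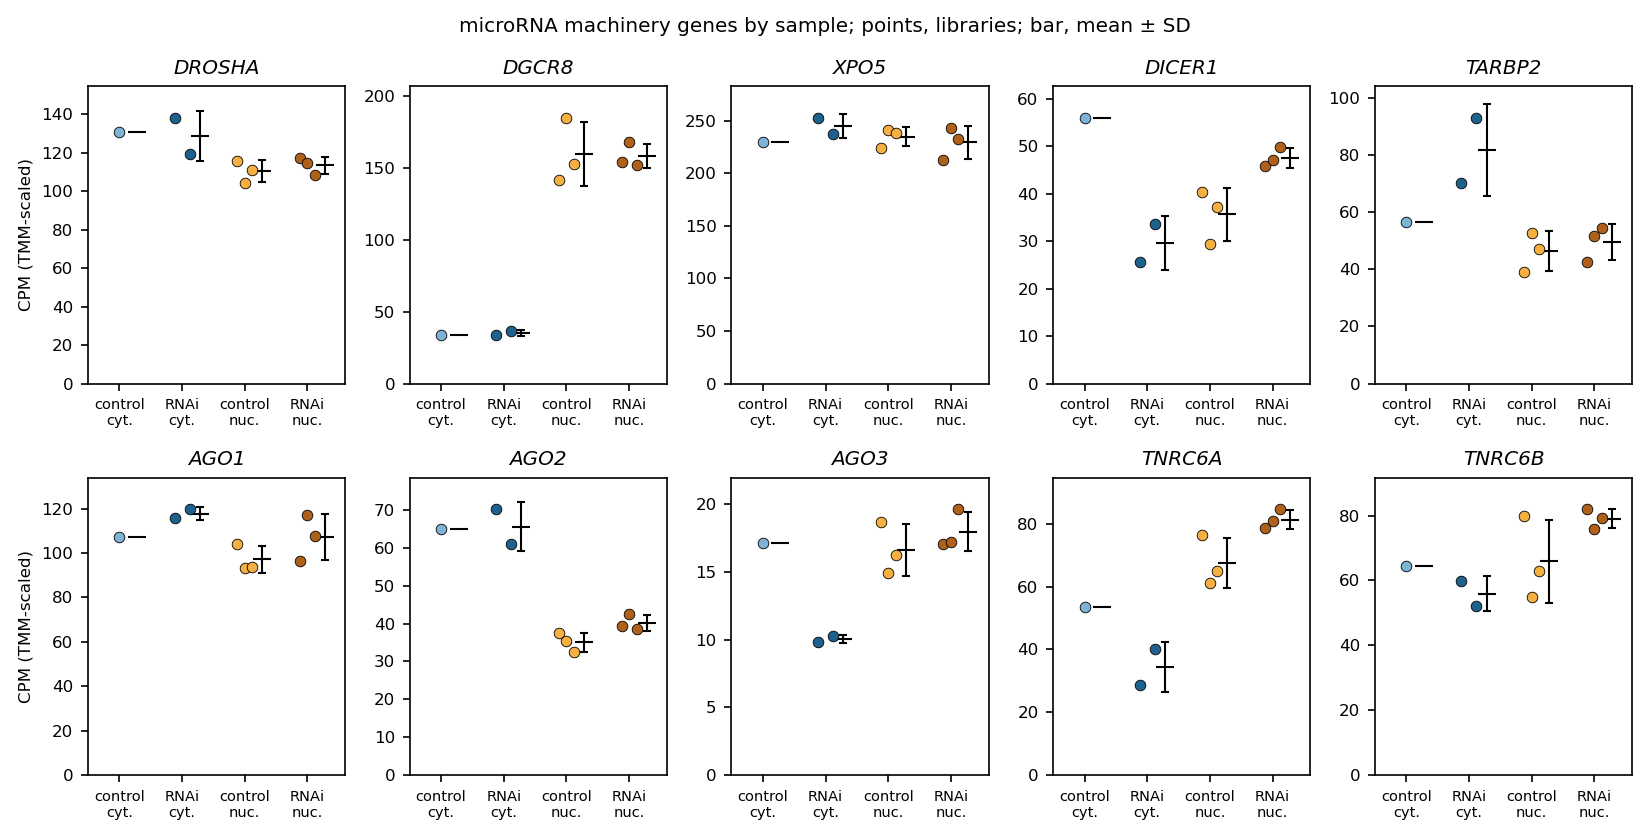
Level of each of the 10 genes in each library, in CPM after TMM scaling on a linear axis from 0, for control cytoplasm (n = 1), RNAi cytoplasm (n = 2), control nucleus (n = 3) and RNAi nucleus (n = 3). Points are libraries and the bars beside them the mean ± SD (no SD for the single library). DICER1, AGO3, TNRC6A and TNRC6B are lower in both RNAi cytoplasmic libraries than in the control one, and AGO1, XPO5 and TARBP2 are higher in both. DGCR8 is high in all 6 nuclear libraries.

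DICER1 (ENSG00000100697), at chr14:95552565-95624347 on the minus strand, makes the final cut that yields a mature microRNA. Its level was 56 CPM in the control cytoplasm and 25.6 and 33.6 CPM in the RNAi cytoplasms, so both RNAi libraries were below the control. It was 40.4, 29.4 and 37.2 CPM in the control nuclei and 45.8, 47.2 and 49.8 CPM in the RNAi nuclei, so all 3 RNAi nuclei were above all 3 control nuclei. In the control DICER1 was thus lower in every nucleus than in the cytoplasm, and after RNAi it was higher in every nucleus than in either cytoplasm.

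The nuclear/cytoplasmic ratio of DICER1 was 2.54 times that of the control (log2 1.34, SE 0.245, FDR 0.00959, quasi-likelihood test of edgeR, adjusted over all genes by the Benjamini-Hochberg method). A gene was called when its log2 change was beyond 0.5 in size with an FDR under 0.1. At these thresholds 18.2% of all genes tested were called for the ratio change in either direction and 10.4% were called higher, against 3 of the 10 members, all higher. For DICER1, 1 of the 3, the study had itself reported a raised ratio by RT-qPCR after the double knockdown. The median of the 10 members was 0.12 on the log2 scale, with that of all genes at -0.047. The cytoplasmic level of DICER1 after RNAi was 52.6% of the control (log2 -0.93, SE 0.202, FDR 0.0114), and its nuclear level was 1.34 times the control (log2 0.42, SE 0.138) with an FDR of 0.124. DICER1 alone remained called for the ratio change when counts were corrected for transcript length. Its log2 change was then 1.83 with a larger SE of 0.541 (edgeR FDR 0.0775), and its cytoplasmic change -1.16 (SE 0.446, FDR 0.123). With protein-coding transcripts only, the ratio change of DICER1 was 1.46 (SE 0.25, edgeR FDR 0.0109). In the 8 fits that left out 1 library other than the single control cytoplasm, the ratio change of DICER1 lay between 1.16 and 1.59 on the log2 scale, with FDR between 0.00276 and 0.0311.

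TARBP2 is the double-stranded RNA-binding partner of DICER1. It was at 56.6 CPM in the control cytoplasm, 70.3 and 93 CPM in the RNAi cytoplasms, 39.2, 52.9 and 47.1 CPM in the control nuclei and 42.5, 51.5 and 54.6 CPM in the RNAi nuclei. Both RNAi cytoplasms were above the control, the opposite of DICER1, while the nuclei overlapped. Its ratio change was -0.43 on the log2 scale (SE 0.268, FDR 0.325) and its cytoplasmic change 0.53 (SE 0.225, FDR 0.126), neither of them called. The cytoplasmic change was called without RNAi cytoplasmic replicate 1 (0.72, edgeR FDR 0.0655) or without control nuclear replicate 2 (0.53, FDR 0.0791). With the replicate number as a block both were called, the ratio change at -0.60 (FDR 0.0275) and the cytoplasmic change at 0.70 (FDR 0.00505).

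Of the Argonautes, AGO3 was the only one called for the ratio change. AGO3 (ENSG00000126070, chr1:36396319-36538101, plus strand) was at 17.1 CPM in the control cytoplasm and at 9.81 and 10.3 CPM in the RNAi cytoplasms. It was 18.7, 14.9 and 16.3 CPM in the control nuclei and 17, 17.2 and 19.6 CPM in the RNAi nuclei, so the nuclei overlapped and the RNAi cytoplasms stood below every other library. The ratio change was 0.88 (log2, SE 0.227, FDR 0.0339) and the cytoplasmic level was 58.7% of the control (log2 -0.77, SE 0.188, FDR 0.0183). With the correction for transcript length the ratio change of AGO3 was 0.58 (FDR 0.334), and on the log2(TPM + 1) scale 0.77 (FDR 0.236), neither of them called.

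AGO1 lies next to AGO3 on chromosome 1, on the same strand. It was at 107 CPM in the control cytoplasm, 116 and 120 CPM in the RNAi cytoplasms, 93.2 to 104 CPM in the control nuclei and 96.5 to 117 CPM in the RNAi nuclei. The ratio change was 0.01 on the log2 scale (SE 0.174), and its RNAi nuclei overlapped with the control nuclei while both RNAi cytoplasms were slightly above the control. AGO2 was at 65.1 CPM in the control cytoplasm and 70.2 and 61 CPM in the RNAi cytoplasms, which lie on either side of it. In the nuclei AGO2 was lower, at 37.4, 35.4 and 32.5 CPM in the control and 39.4, 42.6 and 38.5 CPM after RNAi. All 3 RNAi nuclei were above all 3 control nuclei, but the nuclear change of 0.19 (log2, SE 0.101, edgeR FDR 0.31) was not called. All 6 nuclear libraries were below all 3 cytoplasmic ones, and the ratio change was 0.18 (SE 0.178, FDR 0.549).

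TNRC6A (ENSG00000090905, chr16:24621530-24838953, plus strand), which encodes the scaffold protein GW182, was at 53.4 CPM in the control cytoplasm and at 28.8 and 40.1 CPM in the RNAi cytoplasms. It was at 76.4, 61.1 and 65 CPM in the control nuclei and at 78.6, 81 and 84.6 CPM in the RNAi nuclei. Each RNAi nucleus was above each control nucleus, and both RNAi cytoplasms were below the control. The share of all genes whose libraries lie apart in such ways was not computed for any member. The ratio change was 0.91 (log2, SE 0.233, FDR 0.0335), the cytoplasmic level 64.2% of the control (log2 -0.64, SE 0.194, FDR 0.0421) and the nuclear change 0.27 (SE 0.129, FDR 0.265). The cytoplasmic call was lost without RNAi cytoplasmic replicate 1 (log2 -0.41, FDR 0.157), and with the correction for transcript length the ratio change was 0.96 (FDR 0.131).

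TNRC6B was at 64.4 CPM in the control cytoplasm, 59.7 and 52 CPM in the RNAi cytoplasms, 79.9, 54.8 and 63 CPM in the control nuclei and 81.9, 76 and 79.2 CPM in the RNAi nuclei. Both RNAi cytoplasms were below the control, but the nuclei overlapped and the ratio change of 0.46 (log2, SE 0.237, FDR 0.232) was not called. It was 0.68 (FDR 0.0334) and called without control nuclear replicate 1, and 0.76 (FDR 0.0616) and called when libraries were scaled by size alone. Whether TNRC6A and TNRC6B differ in their ratio change was not tested.

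The Microprocessor and the export factor were not called for the ratio change. DROSHA was at 131 CPM in the control cytoplasm, 138 and 119 CPM in the RNAi cytoplasms, 104 to 116 CPM in the control nuclei and 108 to 117 CPM in the RNAi nuclei, with a ratio change of 0.06 (log2, SE 0.162). XPO5 was at 230 CPM in the control cytoplasm, 253 and 237 CPM in the RNAi cytoplasms, 224 to 241 CPM in the control nuclei and 213 to 243 CPM in the RNAi nuclei, with a ratio change of -0.13 (SE 0.154). Both RNAi cytoplasms of XPO5 were above the control. DGCR8 changed by -0.06 (SE 0.204). The SE of these 3 values was 0.154 to 0.204 on the log2 scale, so small changes of their ratio were not detectable in these libraries.

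**Figure D2:**
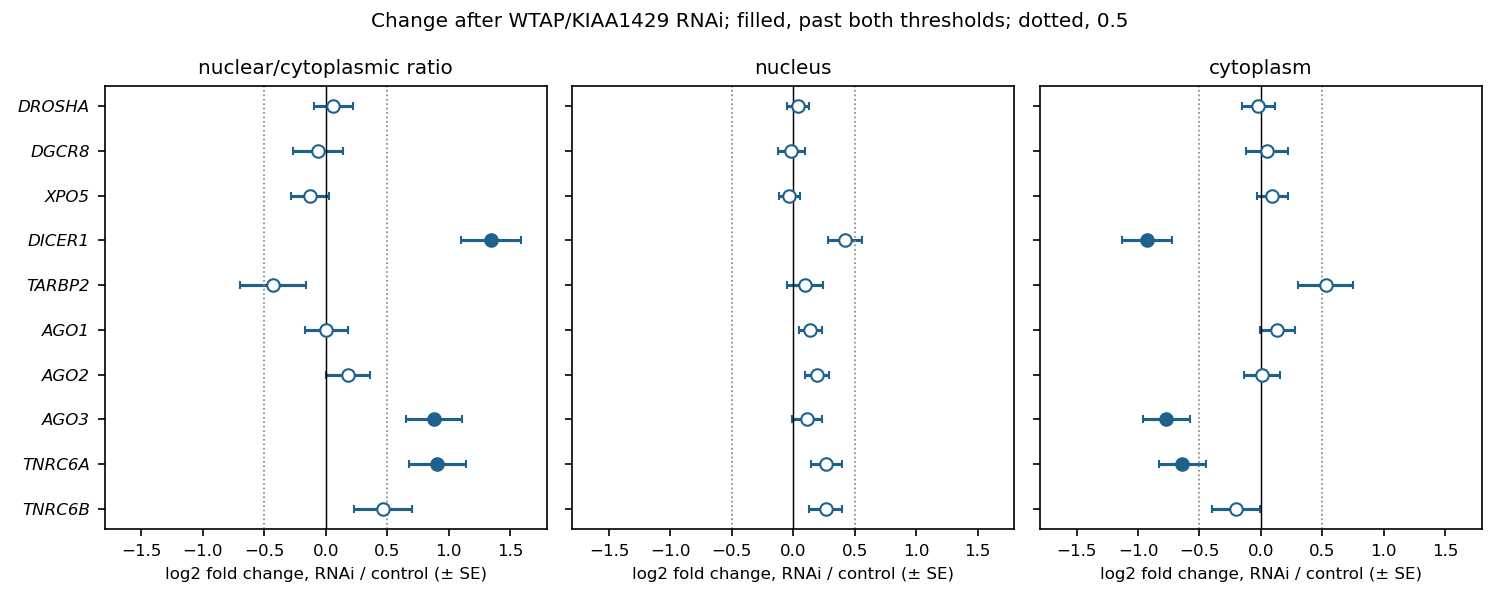
Log2 fold change of each gene after RNAi against control (x axis, dotted lines at 0.5 in size) for the nuclear/cytoplasmic ratio, the nucleus and the cytoplasm, with bars of 1 SE from the edgeR fit. Filled points are past both thresholds: DICER1, AGO3 and TNRC6A for the ratio (higher) and the cytoplasm (lower), and none in the nucleus.

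By fraction, none of the 10 members was called in the nucleus with edgeR, where 4.89% of all genes were. At an unadjusted p under 0.05 the count was 1 (DICER1), and the share of all genes at that p was not computed. With DESeq2 at the same thresholds as in edgeR the count was 0. Without control nuclear replicate 1 DICER1 was called in the nucleus (0.52, FDR 0.0649). In 8 of the 10 genes the nuclear change was above 0, with a median of 0.13 on the log2 scale beside -0.001 for all genes. The share of all genes above 0 was not counted. In the cytoplasm 3 of the 10 were called, all lower, where 24.6% of all genes were called and 14.2% were called lower. The median cytoplasmic change of the members was 0 beside 0.011 for all genes, with 5 members above and 5 below 0. Because both fractions enter the ratio, the ratio and cytoplasmic values of a gene share libraries and are not independent of each other.

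Between fractions of control cells, 3 members were called, where 50.8% of all genes were. DGCR8 was higher in the nucleus by 2.24 on the log2 scale (SE 0.179, FDR 2.15e-05), and AGO2 (-0.89, SE 0.134, FDR 0.000536) and DICER1 (-0.65, SE 0.187, FDR 0.0155) were lower. After RNAi, 6 members were called, where 57.8% of all genes were. DGCR8 (2.17, SE 0.136), TNRC6A (1.25, SE 0.153), AGO3 (0.84, SE 0.149) and DICER1 (0.69, SE 0.16) were higher in the nucleus, and TARBP2 (-0.72, SE 0.164) and AGO2 (-0.71, SE 0.111) were lower. DICER1 was called on opposite sides in the control and after RNAi, but not under every setting: its RNAi value was 0.43 (edgeR FDR 0.322) with the correction for transcript length, and its control value -0.45 (FDR 0.0976) with protein-coding transcripts only, neither of them called. TNRC6B in RNAi cells was at 0.50 (SE 0.151, FDR 0.0151), just under the fold threshold and so not called. It was called, at 0.52 to 0.84, with scaling by library size, the length correction, protein-coding transcripts only, the replicate block and limma on log2(TPM + 1), and in 6 of 9 fits that left out 1 library. Calls were also lost in RNAi cells. AGO3 was at 0.02 (FDR 0.948) with the length correction and at 0.36 (FDR 0.161) with limma. AGO2 was at -0.44 with scaling by library size, -0.39 with limma and -0.27 (FDR 0.348) with protein-coding transcripts only. TARBP2 was at -0.43 with scaling by library size, -0.17 with limma and -0.48 without RNAi cytoplasmic replicate 2.

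DGCR8 (ENSG00000128191, chr22:20067744-20099400, plus strand) was at 33.9 CPM in the control cytoplasm and 33.6 and 36.6 CPM in the RNAi cytoplasms, but at 142, 185 and 153 CPM in the control nuclei and 154, 168 and 152 CPM in the RNAi nuclei. The nuclear and cytoplasmic libraries did not overlap, whereas control and RNAi libraries lay close together within each fraction. The 6 DGCR8 transcripts annotated as intron-retaining summed to 1.1 TPM in the control cytoplasm and to 1.03 and 1.34 TPM in the RNAi cytoplasms. In the control nuclei they summed to 28.4, 44.9 and 37.4 TPM and in the RNAi nuclei to 32.4, 42.5 and 34.6 TPM. They made up 78.4% ± 5.17 of DGCR8 TPM in the control nucleus (SD, n = 3) and 74.5% ± 4.03 in the RNAi nucleus (SD, n = 3), against 14.6% in the control cytoplasm and 18.6% ± 4.13 in the RNAi cytoplasm (SD, n = 2).

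Single DGCR8 transcripts showed where this RNA was assigned. DGCR8-209, of 3661 nt, keeps intron 4 whole and 126 of the 478 nt of intron 2, and had 17.5, 28.8 and 19.5 TPM in the control nuclei, 16.4, 22.2 and 20.3 TPM in the RNAi nuclei and 0.844 to 1.09 TPM in the 3 cytoplasms. DGCR8-208, which keeps intron 2 whole, had 6.31 to 11 TPM in the nuclei and 0 to 0.403 TPM in the cytoplasms. The coding transcript DGCR8-201 had 6.42 TPM in the control cytoplasm, 5.53 and 4.87 TPM in the RNAi cytoplasms and 4.92 to 9.8 TPM in the nuclei, so its fractions overlapped. When only protein-coding transcripts were counted, DGCR8 was higher in the control nucleus by 0.57 (log2, SE 0.307, FDR 0.176), which was not called, and in the RNAi nucleus by 0.82 (SE 0.244, FDR 0.0207). Salmon divides reads that fit several transcripts, so the split between DGCR8-209 and the coding transcript is an estimate.

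XPO5 and TARBP2 also had intron-retaining transcripts that were rare in the cytoplasm. For XPO5 they summed to 3.95, 16.7 and 5.68 TPM in the control nuclei and 8.62, 11.3 and 11.7 TPM in the RNAi nuclei, and to at most 0.268 TPM in the 3 cytoplasms. For TARBP2 they summed to 7.45, 11.1 and 9.71 TPM in the control nuclei and 9.04, 9.44 and 11.7 TPM in the RNAi nuclei, and to 0.735 to 1.28 TPM in the cytoplasms. In both genes every nucleus was above every cytoplasm and the control and RNAi nuclei overlapped. The coding transcript XPO5-201 differed little between libraries, at 32.5 to 46.7 TPM. With protein-coding transcripts alone, TARBP2 was lower in the nucleus than in the cytoplasm in the control (log2 -0.74, SE 0.263, FDR 0.0532) and after RNAi (log2 -0.98, SE 0.212, FDR 0.00462).

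**Figure D3:**
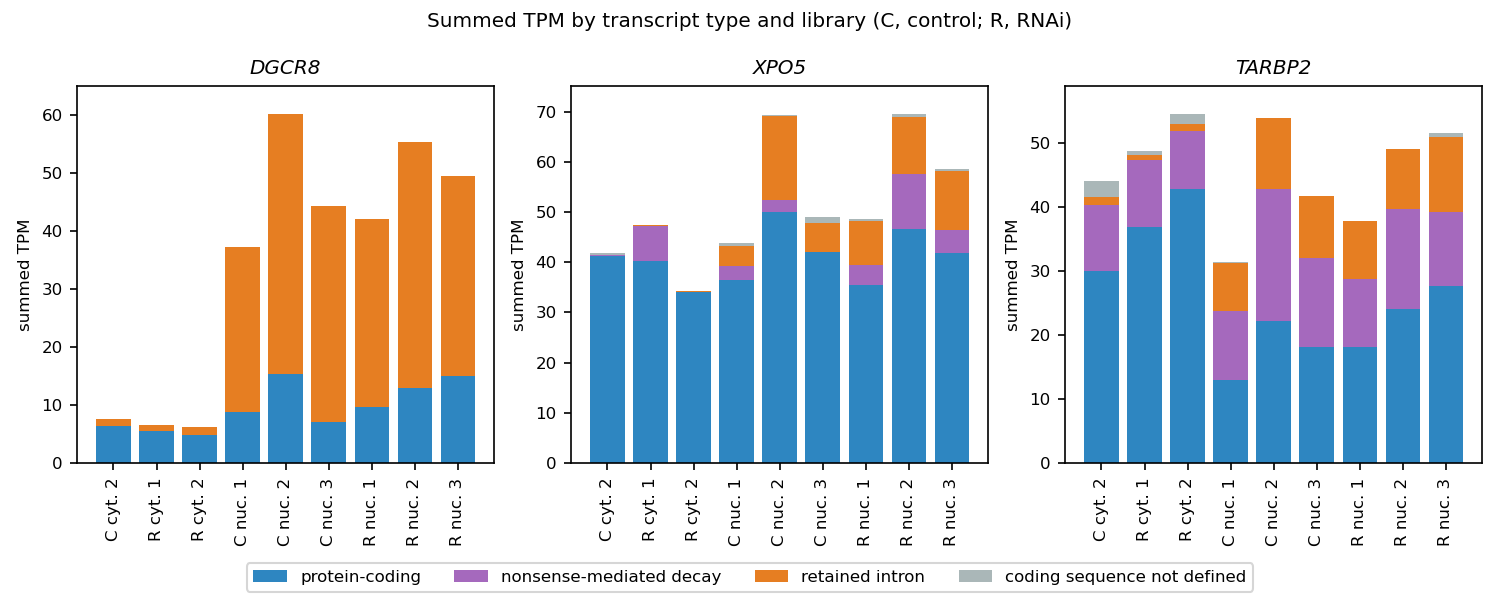
Summed TPM (bars from 0) of DGCR8, XPO5 and TARBP2 in each library, split by the annotated transcript type (protein-coding, nonsense-mediated decay, retained intron, coding sequence not defined). The intron-retaining part of DGCR8 is 28.4 to 44.9 TPM in the 6 nuclei and 1.03 to 1.34 TPM in the 3 cytoplasms, and XPO5 and TARBP2 show smaller parts of the same kind.

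Of the member transcripts, none was called by limma on log2(TPM + 1), where 0.0506% of all 41485 transcripts tested were called for the ratio change and 0.248% in the nucleus. At an unadjusted p under 0.05, 5 of the 57 member transcripts tested passed for the ratio change and 7 in the nucleus. The share of all transcripts at that p was not computed, so no excess can be read from these counts. TNRC6A-216 (ratio change 1.37, SE 0.365, FDR 0.339) and TNRC6A-203 (1.30, SE 0.366, FDR 0.363) led the TNRC6A transcripts, with TNRC6A-203 at 10.9, 11.5 and 10.9 TPM in the RNAi nuclei and 5.18 to 9.13 TPM in the control nuclei. DROSHA-206, a short coding transcript, had a ratio change of 2.22 (SE 0.782, FDR 0.452) while the main one, DROSHA-219, had 0.33 (SE 0.268). DICER1 was spread over several transcripts: DICER1-205, a model of 691 nt with no defined coding sequence, had the highest mean TPM (2.96), and the coding DICER1-201, of 10277 nt, had a mean of 2.05 TPM. By estimated counts the order was the opposite, with a mean of 292.9 for DICER1-201 and 20.9 for DICER1-205. DICER1-201 was at 0.00467 TPM in RNAi cytoplasmic replicate 1 and at 2.23 TPM in replicate 2, so the division of DICER1 among its transcripts varied between replicates more than its summed level did. The ratio change was 1.40 (SE 0.749) for DICER1-205 and 0.80 (SE 0.755) for DICER1-201, each with a larger SE than the gene as a whole.

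The other named transcripts were not called either. XPO5-201 changed by 0.17 (SE 0.299) for the ratio, AGO1-202 by 0.55 (SE 0.362), AGO1-201 by 0.15 (SE 0.325) and AGO3-204 by 0.54 (SE 0.343). AGO2 was divided between AGO2-202 (0.26, SE 0.379) and the intron-retaining AGO2-206 (-0.06, SE 0.355), both short models, and TARBP2-201 changed by -0.19 (SE 0.463). TNRC6B-202 changed by 0.76 (SE 0.378) and TNRC6B-203 by 0.82 (SE 0.535), and DGCR8-209 by 0.02 (SE 0.397) beside 0.54 (SE 0.448) for DGCR8-201.

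DICER1 and XPO5 overlap genes on the opposite strand, DICER1-AS1 over 366 nt and POLR1C over 40085 nt, as do DGCR8 (TRMT2A, 3 nt) and TARBP2 (1 long non-coding RNA, 655 nt). These lengths are of whole gene spans, introns included, and bases shared between exons were not counted. Whether the counting used strand is not given in the sources used here. Without it, reads from any shared exon bases cannot be told apart.

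Across the 9 libraries, the pattern of DICER1 (TMM-scaled log2 CPM) was most like those of PHIP (Pearson's r = 0.957), MAGI3 (0.955), PRKAA2 (0.941), BCLAF1 (0.938) and AKAP11 (0.933) among 8273 other genes with a mean of at least 10 CPM, of which 20 had r above 0.9. The ratio changes of these 5 genes were 3.35, 1.66, 1.74, 2.23 and 2.42 on the log2 scale. PHIP, the closest, was at 20.1 CPM in the control cytoplasm, 4.13 and 5.14 CPM in the RNAi cytoplasms, 3.48 to 11.5 CPM in the control nuclei and 17.4 to 19.3 CPM in the RNAi nuclei, so it shared the high single control cytoplasm and the low RNAi cytoplasms. Among the members, r with DICER1 was 0.772 for AGO3, 0.68 for TNRC6A and 0.658 for TNRC6B, and -0.594 for XPO5. These values describe 9 libraries that share the same 4 groups.

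Of 36 other genes of small RNA pathways, all tested, 8 had a higher and 2 a lower ratio after RNAi, with a median of 0.1 on the log2 scale, where 18.2% of all genes were called. In the cytoplasm 5 were called higher and 11 lower, where 24.6% of all genes were called. In the nucleus 2 of the 36 were called, close to the 4.89% of all genes: TNRC6C, a relative of TNRC6A, was higher (0.63, SE 0.174, FDR 0.0749) and AJUBA lower (-0.59, SE 0.172, FDR 0.0854). Among chaperones that load Argonautes, HSP90AA1 changed by 1.79 (SE 0.231, FDR 0.00249). It was at 220 CPM in the control cytoplasm, 53.8 and 68.2 CPM in the RNAi cytoplasms, 63.3 to 85.2 CPM in the control nuclei and 66.1 to 69.8 CPM in the RNAi nuclei, so the single control cytoplasm stood apart from the other 8 libraries.

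TUT4, which adds uridines to microRNA precursors, changed by 1.69 (SE 0.259, FDR 0.00488), with 37.1 CPM in the control cytoplasm, 17.4 and 12.2 CPM in the RNAi cytoplasms, 38 to 41.8 CPM in the control nuclei and 44.2 to 60.1 CPM in the RNAi nuclei. LIN28B, an RNA-binding protein that blocks maturation of let-7, changed by 1.28 (SE 0.237, FDR 0.00992), from 26.6 CPM in the control cytoplasm to 11.1 and 10.3 CPM. As in DICER1, the RNAi nuclei of TUT4 were above the control nuclei, while those of LIN28B (9.36 to 10.2 CPM) lay within the control range of 8.86 to 11.7 CPM. The decay and translation factors DDX6 (1.75, SE 0.453, FDR 0.0348) and FMR1 (1.22, SE 0.353, FDR 0.0492), the export receptor XPO1 (1.17, SE 0.17, FDR 0.00397), TSNAX (1.18, SE 0.32, FDR 0.0411), a part of the nuclease complex that clears the passenger strand, and HNRNPA2B1 (0.51, SE 0.177, FDR 0.0875) were also higher. DDX6 was at 1.37 to 3.41 CPM, and its protein-coding transcripts alone did not pass the filter. With the correction for transcript length, DDX6 (edgeR FDR 0.139), FMR1 (0.181), TSNAX (0.16) and HNRNPA2B1 (0.156) were not called, while XPO1 was. DDX6 was not called with DESeq2 either (FDR 0.105). With limma on log2(TPM + 1), FMR1, TSNAX and HNRNPA2B1 were not called, while DDX6 and XPO1 were. With protein-coding transcripts only, TSNAX was not called (edgeR FDR 0.312).

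SND1, a Tudor domain nuclease, fell by 0.75 on the log2 scale in its ratio (SE 0.14, FDR 0.0102), with 283 CPM in the control cytoplasm, 364 and 360 CPM in the RNAi cytoplasms, 368 to 396 CPM in the control nuclei and 283 to 297 CPM in the RNAi nuclei. GEMIN4 fell by 0.55 (SE 0.155, FDR 0.0459), with 103 CPM in the control cytoplasm and 171 and 182 CPM in the RNAi cytoplasms. When libraries were scaled by size alone, the median ratio change of all genes moved from -0.047 to 0.233, the list then had 10 genes higher and 0 lower, and SND1 (-0.46, FDR 0.234) and GEMIN4 (-0.26, FDR 0.583) were not called. All genes called then were 2236 higher and 164 lower, beside 1680 and 1273. The ratio changes of DICER1 (1.65), TNRC6A (1.21) and AGO3 (1.17) stayed above that median and were called.

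**Figure D4:**
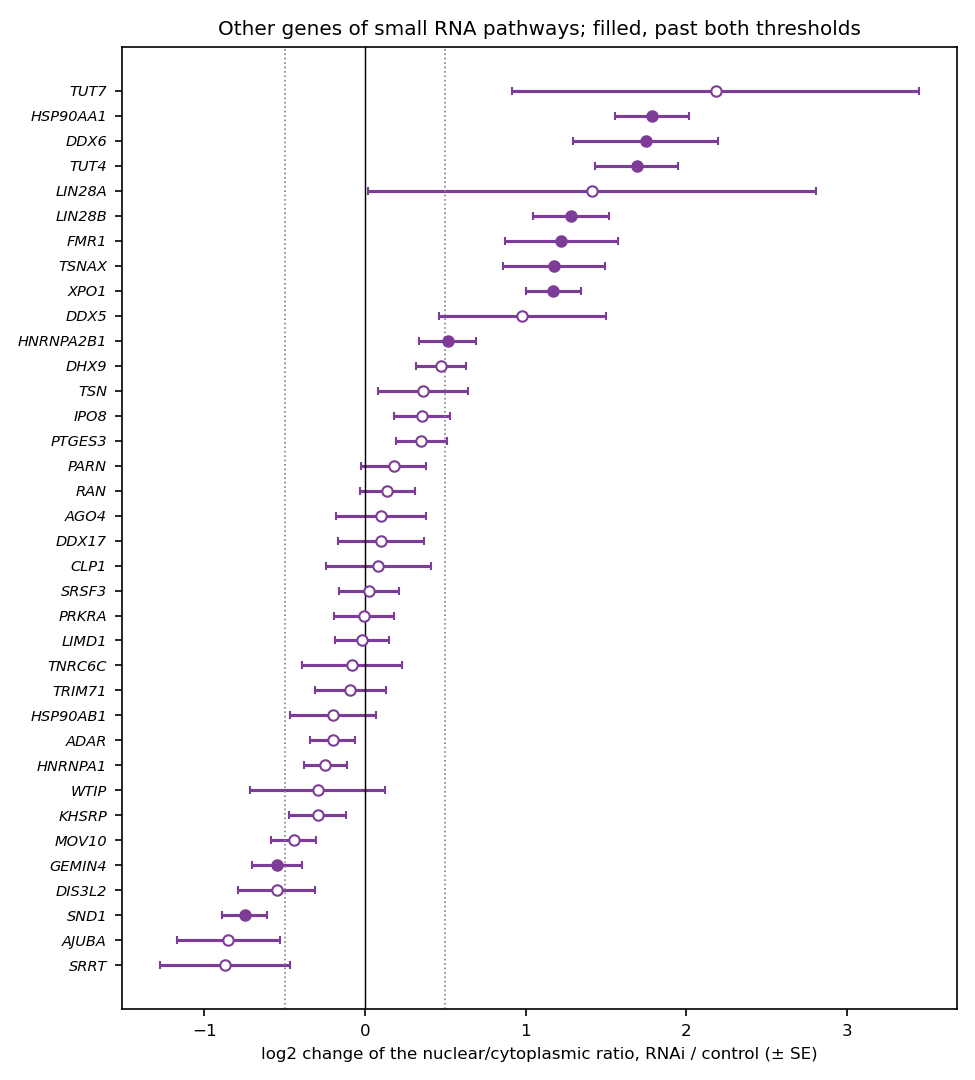
Log2 change of the nuclear/cytoplasmic ratio after RNAi (x axis, with bars of 1 SE) for the 36 other genes of small RNA pathways, ordered by value. Filled points are past both thresholds, 8 to the right of 0 and 2 to the left, and the dotted lines mark 0.5 in size.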

How the data were processed

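RNA-seq of nuclear and cytoplasmic fractions was analysed in 9 libraries made with the Lexogen SENSE mRNA-Seq kit. Per the labels and methods, the authors trimmed reads with cutadapt, merged lanes, ran salmon against the Ensembl version 75 annotation of hg19 and summed to genes with tximport; the version of salmon is not given in the sources used here. They deposited, for each transcript, an estimated count without normalization between libraries, and TPM values, which are scaled to the same total in each library. The deposited effective lengths served the length correction.

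Here transcripts were matched without version number to GENCODE version 44 on GRCh37 (183122 of 215170, 85.1%, holding 83.07% to 88.31% of a library's estimated counts) and counts summed per gene and rounded. Genes with at least 10 counts in at least 3 libraries were fitted with edgeR 4.0.16 (R 4.3.3, TMM, quasi-likelihood test, 4 groups, 5 residual degrees of freedom). The ratio change is the contrast (RNAi nucleus / RNAi cytoplasm) / (control nucleus / control cytoplasm), with the study's thresholds. An SE is the log2 change divided by the root of the F statistic. Transcripts with at least 1 TPM in at least 3 libraries were fitted with limma 3.58.1 on log2(TPM + 1), which understates changes of low transcripts. Alternatives were DESeq2 1.42.0 and its size factors, scaling by library size, no filter, the length offset, protein-coding transcripts only, a replicate block, limma on log2(TPM + 1) and log2(TPM + 0.1), the nuclear libraries alone, and each library left out. Fits were tested on simulated data.

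Named were the 10 members, for each its transcript of highest mean TPM and any with a mean share of at least 20% of its TPM, other pathway genes called for the ratio change, both siRNA targets, fraction markers and the 5 genes most like DICER1. TNRC6C, AJUBA, DGCR8-208 and AGO2-201 were named after their values were seen. Members and lists were chosen with earlier results of these data known. No 2 replicates of a group differed by as little as sampling noise (chi-square per degree of freedom at least 5.44).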

Additional observations from a re-analysis of the deposited data

Results flagged for a closer look

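The genes below changed differently after RNAi in the nucleus and in the cytoplasm, by the edgeR test of that difference. Several of them lost that call under other settings, as given above. Among the members the difference (nucleus minus cytoplasm, log2) was 1.34 for DICER1, 0.91 for TNRC6A and 0.88 for AGO3. Among other small RNA pathway genes it was 1.79 for HSP90AA1, 1.75 for DDX6, 1.69 for TUT4, 1.28 for LIN28B, 1.22 for FMR1, 1.18 for TSNAX, 1.17 for XPO1 and 0.51 for HNRNPA2B1. It was -0.75 for SND1 and -0.55 for GEMIN4. All of these values rest on the 1 control cytoplasmic library. No group had 4 libraries, so single libraries were not tested as outliers.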

How the results depend on the processing

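The ratio change called 3 of the 10 members, and 1 with the transcript length offset (DICER1). With the replicate block it called 5 (TARBP2 at -0.60 and TNRC6B at 0.63 in addition). In the cytoplasm 3 were called, 0 with the length offset 1 with limma on either TPM scale (DICER1) and 4 with the replicate block (TARBP2 at 0.70 in addition). The cause was not tested. Leaving out 1 library gave 3 to 4 members for the ratio change, 3 to 4 in the cytoplasm, 0 to 1 in the nucleus (DICER1 at 0.52, FDR 0.0649, without control nuclear replicate 1), 3 between control fractions, 5 to 7 between RNAi fractions and 0 member transcripts. Without the control cytoplasm only the nuclear and the RNAi fraction comparisons could be made. A change of sign was counted as a reversal where either value was called or both exceeded their SE. Between RNAi fractions XPO5 turned to 0.52 and 0.53 (called) with limma on log2(TPM + 1) and log2(TPM + 0.1), DROSHA turned to 0.19 and 0.20, and AGO1 turned to 0.15 with protein-coding transcripts only. Of 880 gene values under alternatives, 823 kept their side of the thresholds without a reversal, 26 lost and 26 gained a call and 5 reversed. In 69 values the sign changed without meeting the rule for a reversal, so the 823 did not all keep direction. Deviations of same-numbered libraries correlated at 0.185, 0.11 and 0.042 between control and RNAi nuclei, 0.197 and 0.194 between RNAi cytoplasms and control nuclei, and 0.1 and 0.037 between RNAi cytoplasms and RNAi nuclei. All of these were above 0. Different-numbered libraries correlated at -0.197 to 0.063, most of them below 0. Whether the numbers mark pairs was not tested. The study names no pairing, so the numbers were not taken as pairs, and values with the replicate block are given beside the others. The DGCR8 intron-retaining share in the control cytoplasm was 12% of estimated counts in place of 14.6% of TPM, an alternative chosen after seeing the data. With limma on log2(TPM + 1), 1044 genes were called higher and 30 lower for the ratio change. Scaling by library size gave 431 higher and 3200 lower in the cytoplasm, beside 1679 and 2305, and 6456 higher and 2089 lower between RNAi fractions, beside 5316 and 4034. Over all transcripts the ratio change was called higher for 14 and lower for 7, for 192 and 61 on log2(TPM + 0.1), for 848 and 89 with no filter and for 1 and 0 with the replicate block.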
